A study of Arabidopsis thaliana with 28 samples.

Results

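The genes described here are 53 Arabidopsis thaliana genes whose transcripts stood higher both in wild type (WT) held in the cold and in plants overexpressing HSFC1. A gene was a member if the mean log2 signal of its probe set was at least 1 higher in WT after 24 h of cold than in WT kept warm, and also at least 1 higher in the HSFC1 line than in the WT used as the control for transgenic lines. One unit of log2 is a 2-fold change. The signal also had to be over 5 in both cold arrays and both HSFC1 arrays. COR15A, COR47, LTI30, heat shock genes and genes with UGT or CYP symbols were set aside. Of 13513 probe sets that name 1 gene, 5978 passed the signal limit. Of these, 7.63% passed the cold difference and 4.1% the HSFC1 difference, and 59 passed both (0.987%), of which 53 remained after the exceptions, each a different gene. The 6 set aside were COR15A, COR47, LTI30, UGT84A3, UGT73B4 and CYP71B26, and 0 genes annotated by name as heat shock genes passed both limits. The exceptions went mainly by annotated names. Genes of these families that are known only by locus could thus remain among the members. Because the values themselves chose the members, both differences are given as a description, with no test.

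The series holds 28 single-colour arrays in 14 groups of 2 biological replicates, each with RNA from whole aerial parts of Col-0 plants 12 days old, raised at 22°C on sucrose-free agar in unbroken light of roughly 100 µmol (photons, per square metre and second). One WT group was moved to 4°C for 24 h under about 30 µmol, so cold and lower light cannot be told apart. Its counterpart was WT left at 22°C, called WT warm here. At 22°C there were also 11 groups that each overexpressed 1 transcription factor, namely HSFC1 (AT3G24520), CRF2 (AT4G23750), CRF3 (AT5G53290), CZF1 (AT2G40140), DEAR1 (AT3G50260), ERF5 (AT5G47230), MYB44 (AT5G67300), MYB73 (AT4G37260), RAV1 (AT1G13260), ZAT10 (AT1G27730) and ZF (AT4G29190), and a separate Col-0 WT as their control. The labels do not give the promoter of the transgenes or the number of independent lines behind a group. Of the 11 factors only ZAT10 (annotated as STZ) has a probe set named here, so the level of the HSFC1 transgene itself was not checked. With 2 arrays a group, the spread of each group is poorly known. The measured level of a transcript in whole shoots cannot tell fewer cells that make it from less RNA per cell.

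Plants of temperate origin that sense low, non-freezing temperatures change the transcripts of many genes within a day and become more tolerant of freezing, a process called cold acclimation. The CBF transcription factors act on one set of these genes, which includes COR15A, COR47 and LTI30, while other factors that are induced at the same time as the CBFs, HSFC1 among them, can act on further cold-regulated genes. HSFC1 is the class C member of the heat stress transcription factor family, whose members bind heat shock elements in promoters. Sugars and starch, membrane lipids, transporters and the circadian clock all change in the cold.

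The leaf gene RCA, which encodes Rubisco activase, had log2 signals of 13.18 to 14.24 over all arrays. Among markers of other organs, the root and hypocotyl gene PYK10 was also strong, at 11.15 to 13.24, and the root hair gene EXPA7 lay between 3.12 and 6.42, while 0 of 5 seed genes listed were named on the array. The median signal over all probe sets was 5.77 to 5.84 in the arrays of WT cold, WT warm and CZF1, and 5.33 to 5.48 in all the others. The sources do not say how the arrays were put on one scale, and whether the higher medians come from the processing or from the plants was not tested. The 3' minus 5' difference of the GAPDH control probe sets, a sign of RNA quality, was 1.63 and 1.78 in the HSFC1 arrays and 0.75 and 0.91 in the control WT arrays. It was 1.30 and 1.23 in the cold and 1.11 and 1.83 in WT warm. The part of RNA quality in the HSFC1 difference was not tested.

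**Figure D1:**
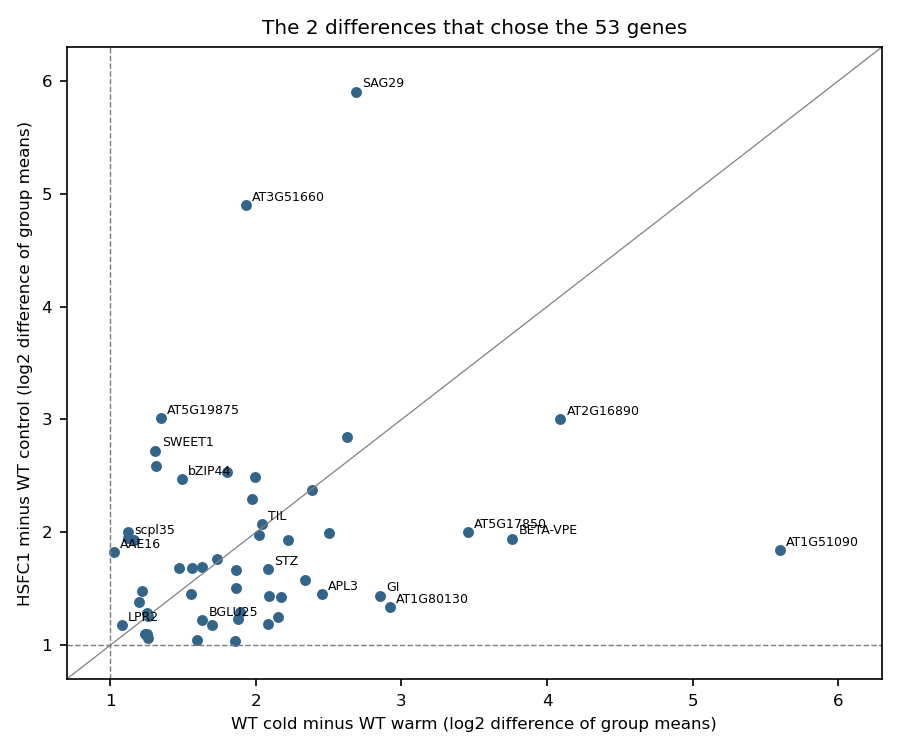
Each point is 1 of the 53 genes, with WT cold minus WT warm on the x axis and HSFC1 minus control WT on the y axis, both as log2 differences of the means of 2 arrays; dashed lines mark the threshold of 1 and the diagonal marks equal differences. SAG29 and AT3G51660 lie far above the diagonal and AT1G51090 far to the right of it, so the 2 differences are of unlike size in many genes.

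The difference in the cold ranged from 1.02 (AAE16) to 5.60 (AT1G51090), with a median of 1.86. The HSFC1 difference ranged from 1.03 (AT5G47060) to 5.91 (SAG29), with a median of 1.69. It was the larger difference in 23 genes, and the cold difference was the larger in 30. Both were at least 2 in 6 genes, AT2G16890, SAG29, AT1G73480, AT2G38465, TIL and AT5G17850. The members nearest the limits were AAE16, AT5G47060 and AT1G68570, with smaller differences of 1.02, 1.03 and 1.05. The genes just outside were AT2G21180 (0.98), AT1G50630 (0.98) and AT5G43440 (0.96).

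Among transport and sugar genes, SAG29, also named SWEET15, a plasma membrane sugar transporter linked to senescence, had log2 signals of 7.16 and 5.81 in the cold and 3.28 and 4.31 in WT warm. In HSFC1 it had 9.54 and 8.58, and in the control WT 3.15 and 3.16. Over the 20 arrays of the other 10 lines it lay between 2.80 and 4.01 with a median of 3.28, so that both HSFC1 arrays stood far above every other array at 22°C. SWEET1, a sugar uniporter of the same family, had 8.46 and 8.76 in the cold against 6.96 and 7.64 in WT warm. In HSFC1 it had 9.49 and 8.64, above the control WT at 6.40 and 6.28, and above the highest array of any other line (8.63, in CZF1). SWEET1 and SAG29 both had the larger difference in HSFC1. AT1G68570, named NPF3.1 in the nitrate and peptide transporter family, had 9.84 and 9.87 in the cold, 8.28 and 8.24 in WT warm, 9.12 and 9.32 in HSFC1 and 8.21 and 8.13 in the control WT.

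APL3, a large subunit of ADP-glucose pyrophosphorylase, which makes the sugar nucleotide for starch synthesis, had 10.30 and 10.03 in the cold, against 7.57 and 7.85 in WT warm. In HSFC1 it had 7.96 and 6.98, against 6.05 and 5.98 in the control WT, so its HSFC1 arrays sat among those of WT warm. BGLU25, of the beta-glucosidase family, had 9.30 and 9.32 in the cold, 7.65 and 7.71 in WT warm, 8.89 and 8.21 in HSFC1 and 7.23 and 7.43 in the control WT. AAE16, an acyl-activating enzyme, had 6.12 and 5.65 in the cold, 4.52 and 5.20 in WT warm, 6.29 and 6.18 in HSFC1 and 4.27 and 4.55 in the control WT. Its HSFC1 arrays were the highest of the 28, beyond the highest array of another line at 5.50.

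TIL, the temperature-induced lipocalin, a membrane-associated protein linked to tolerance of heat, freezing and oxidative stress, had 11.48 and 11.61 in the cold and 9.58 and 9.43 in WT warm. It had 11.59 and 11.31 in HSFC1 and 9.45 and 9.30 in the control WT. The cold and HSFC1 arrays of TIL overlapped each other, and all 4 stood above the 20 arrays of the other lines, which lay between 8.28 and 10.10. BETA-VPE, a vacuolar processing enzyme, a cysteine protease that cuts vacuolar proteins, had 10.15 and 10.28 in the cold, 6.48 and 6.43 in WT warm, 7.89 and 7.02 in HSFC1 and 5.51 and 5.51 in the control WT. The gene was thus higher in the cold than in HSFC1. The serine carboxypeptidase-like gene scpl35 had 10.29 and 10.32 in the cold, 9.10 and 9.27 in WT warm, 10.21 and 9.35 in HSFC1 and 7.82 and 7.84 in the control WT. LPR2, a multicopper oxidase known from the root response to low phosphate, had 9.46 and 9.17 in the cold, 8.20 and 8.27 in WT warm, 8.71 and 8.25 in HSFC1 and 7.62 and 6.99 in the control WT.

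At least 3 members encode known regulators. GI (GIGANTEA) acts in the circadian clock and flowering time, STZ (ZAT10) is a C2H2 zinc finger repressor of stress responses, and bZIP44 is a basic leucine zipper factor. GI had 9.36 and 9.39 in the cold, 6.28 and 6.76 in WT warm, 7.50 and 7.58 in HSFC1 and 6.05 and 6.15 in the control WT. STZ had 6.32 and 6.48 in the cold, 4.07 and 4.57 in WT warm, 6.45 and 5.05 in HSFC1 and 4.08 and 4.07 in the control WT, with its HSFC1 arrays wide apart. bZIP44 had 7.47 and 7.79 in the cold and 6.12 and 6.16 in WT warm, and 8.70 and 9.14 in HSFC1 against 6.45 and 6.44 in the control WT.

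Most members, 41 of 53, are known here only by locus. AT2G16890 had 10.13 and 10.34 in the cold, 6.32 and 5.97 in WT warm, 9.34 and 8.39 in HSFC1 and 6.0 and 5.73 in the control WT. AT1G51090 had the largest difference in the cold, at 9.15 and 8.82 in the cold and 3.55 and 3.22 in WT warm, while in HSFC1 it had 6.47 and 6.47 and in the control WT 4.62 and 4.63. AT3G51660 was nearest SAG29 in HSFC1, at 8.59 and 8.65, against 3.56 and 3.88 in the control WT. AT3G61930 differed from all others in the cold. It had 5.37 and 5.81 in the cold and 4.27 and 3.44 in WT warm, but 5.81 and 5.85 in the control WT, so its cold arrays did not exceed those of the control WT. Its HSFC1 arrays had 7.57 and 7.61. The 2 arrays of HSFC1 differed by more than 1 in 7 members, at most by 2.78 in AT5G20790, at 9.30 and 6.52, with 5.05 and 5.70 in the control WT. The median array difference over members was 0.46 in HSFC1 and 0.16 in the control WT.

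**Figure D2:**
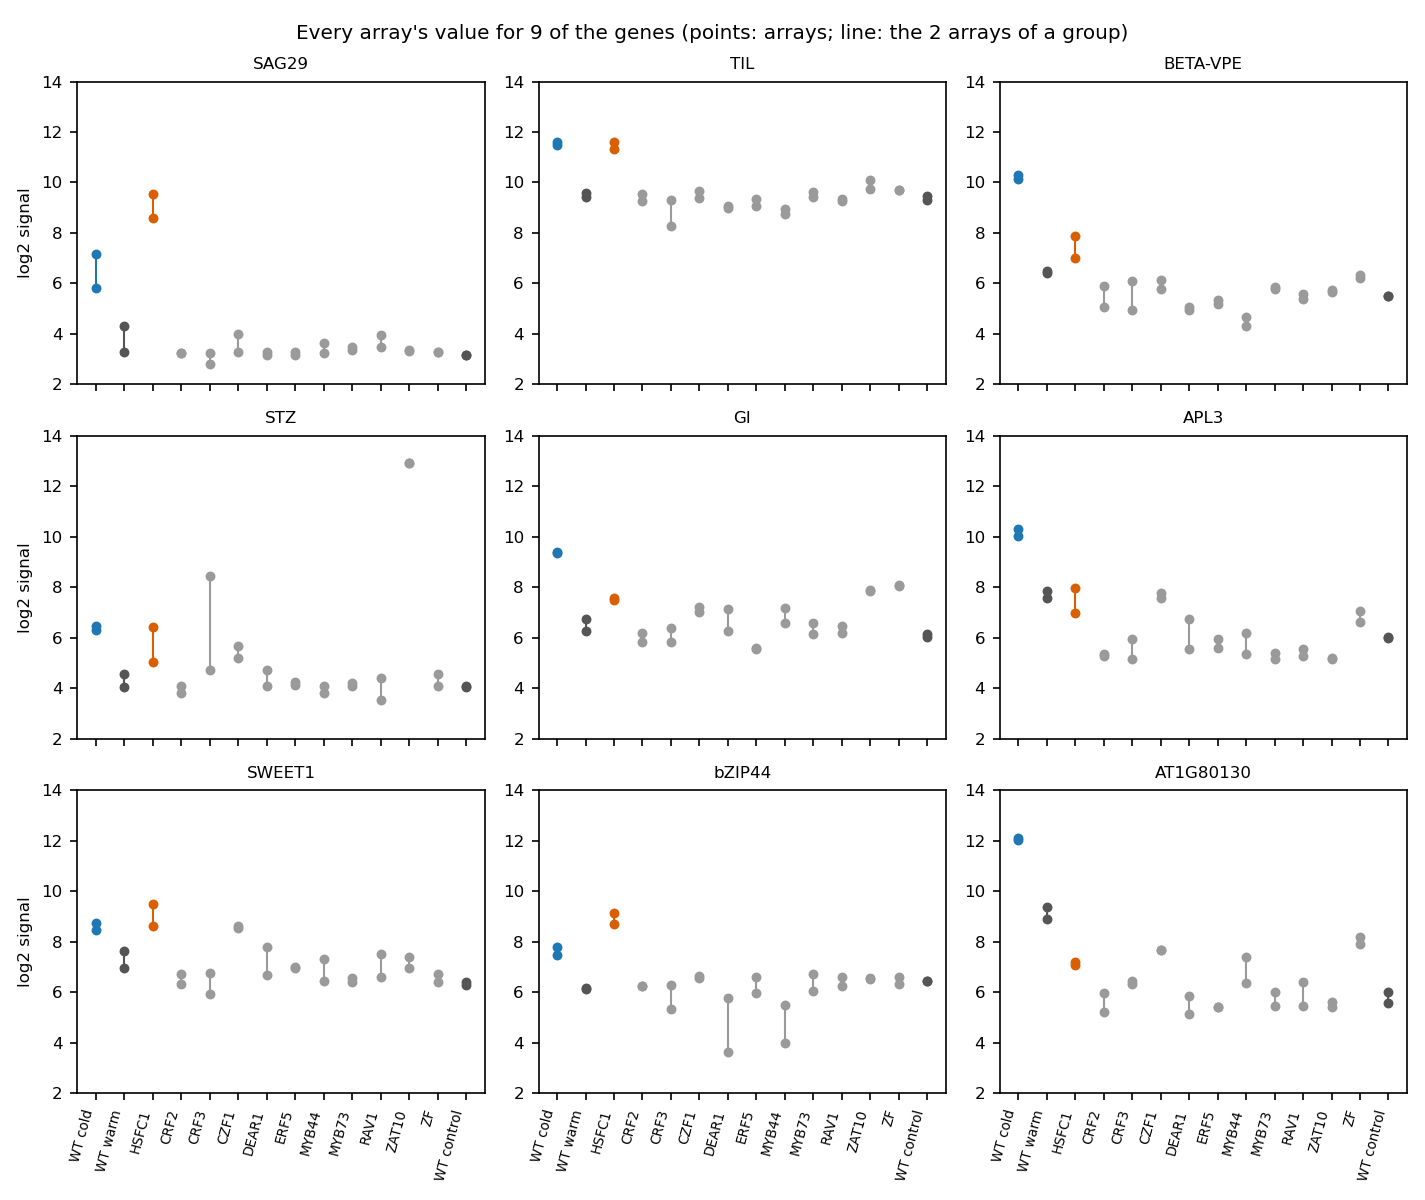
Log2 signal of 9 members in every array, with groups along the x axis and a line joining the 2 arrays of a group. SAG29 and TIL are high in WT cold and HSFC1 and near the control in the other lines, and STZ is highest in the ZAT10 line, which overexpresses it. GI, APL3 and AT1G80130 are also above the control WT in CZF1, ZF or ZAT10.

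The rule compared each of the 2 experiments with its own WT, and the choice of WT could change the picture. WT warm minus control WT ran from -1.975 to 3.34 in the members and was at least 1 in 13 of them. Its median was 0.605 in the members and 0.465 over the 5978 probe sets. In all 53 members both cold arrays stood above both WT warm arrays, and both HSFC1 arrays above both control WT arrays, as the thresholds nearly require. Over the 5978 probe sets the same held for 36.4% and 30.1%. The cold arrays stood above both control WT arrays in 52 members (63.8% over the 5978), the exception being AT3G61930. The HSFC1 arrays stood above both WT warm arrays in 42 members, against 12.3% of the 5978. With WT warm in place of the control WT, the HSFC1 difference had a median of 1.07, was over 0 in 48 members and at least 1 in 30. Over the 5978 the shares were 20.96% and 2.944%. The median over the 5978 was -0.45. After quantile normalization between arrays the medians were 1.59 in the members and 0.02 over the 5978. HSFC1 minus cold had a median of -0.68 in the members and -0.45 over the 5978, and was over 0 in 11 members. After quantile normalization those medians were -0.21 and 0.01, and the difference was over 0 in 22 members.

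The thresholds were also applied to 1 replicate at a time. Probe sets were chosen from the replicate 1 arrays alone and looked up in the replicate 2 arrays, and the reverse. The rule itself used both replicates, and the probe sets chosen this way are not the same set as the members. Replicate 1 chose 81 probe sets, of which 36 (44.4%) passed both thresholds in replicate 2, against 0.872% of the 6195 probe sets that passed the signal limit there. In replicate 2 their median differences were 1.5 in the cold and 1.26 in HSFC1, with 79 over 0 in each. Replicate 2 chose 54, of which 36 (66.7%) passed in replicate 1, against 1.32%. Their medians in replicate 1 were 1.92 in the cold and 1.85 in HSFC1. In the replicate that did not choose, both medians were thus over 1 whichever replicate chose. The 36 that passed are the same overlap seen from either side, so the 2 directions are not independent.

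**Figure D3:**
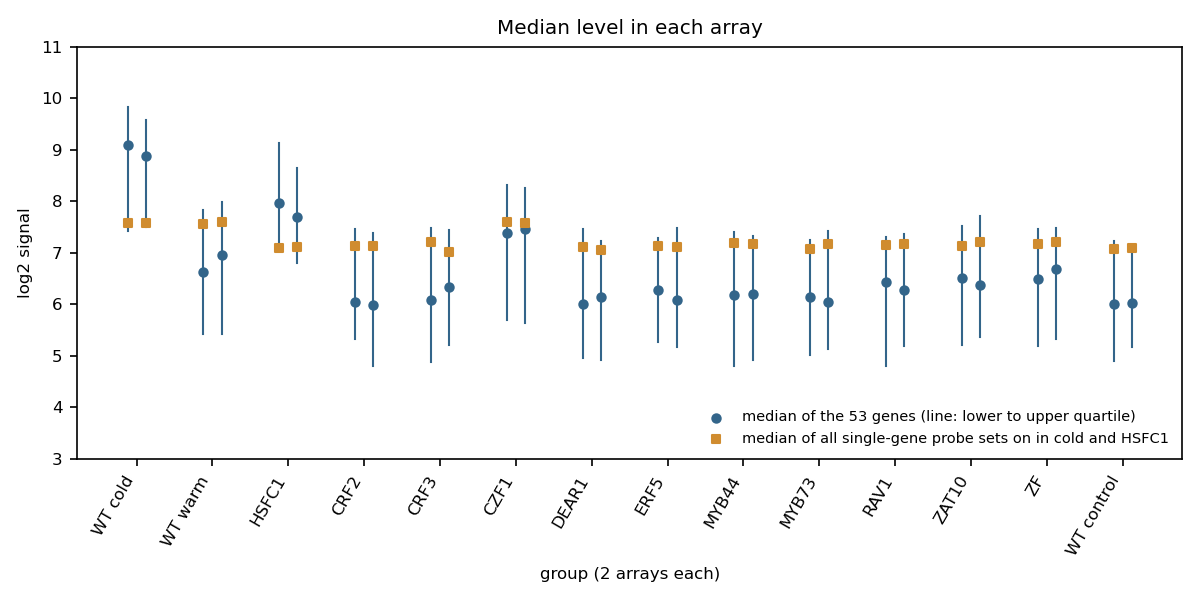
Median log2 signal of the 53 members (circles, with a line between their lower and upper quartile) and of all 5978 probe sets that passed the signal limit (squares) in each of the 28 arrays, by group. The members' median lies above that of all probe sets only in WT cold and HSFC1, and the squares of WT cold, WT warm and CZF1 are higher than those of the other groups.

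The other 10 lines at 22°C, not used to choose the members, show how far the same genes moved under other factors. Among these lines, limma's moderated F test found a difference in 40 of 53 members (75.5%), against 52% of all 15916 probe sets tested. The range between the highest and lowest line mean had a median of 1.60 in the members and 1.05 in all probe sets tested. The probe sets tested include ones of lower signal and ones without a single gene name. Members and all probe sets are thus not matched for signal, here and in the line comparisons below. CZF1 held the highest mean in 31 members. The same count was not made over all probe sets, so the 31 cannot be taken as a trait of the members. CZF1 was above the mean of the other lines in 48 members, and in 80% of all probe sets tested. Without the CZF1 arrays the F test passed in 23 members, against 23.4% of all probe sets.

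HSFC1 itself stood out from the other lines in many members. Both HSFC1 arrays lay above all 20 arrays of the other lines in 28 members, among them SAG29, TIL, SWEET1, BETA-VPE, bZIP44 and AAE16, against 3.38% of the 5978 probe sets. SWEET1 cleared its highest CZF1 array only narrowly. Both cold arrays lay above all 20 in 46, against 23.8%. Without the CZF1 arrays the counts were 34 and 48 (4.8% and 31.6%). Since HSFC1 and the cold were used by the rule, these counts describe the members and are no test.

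**Figure D4:**
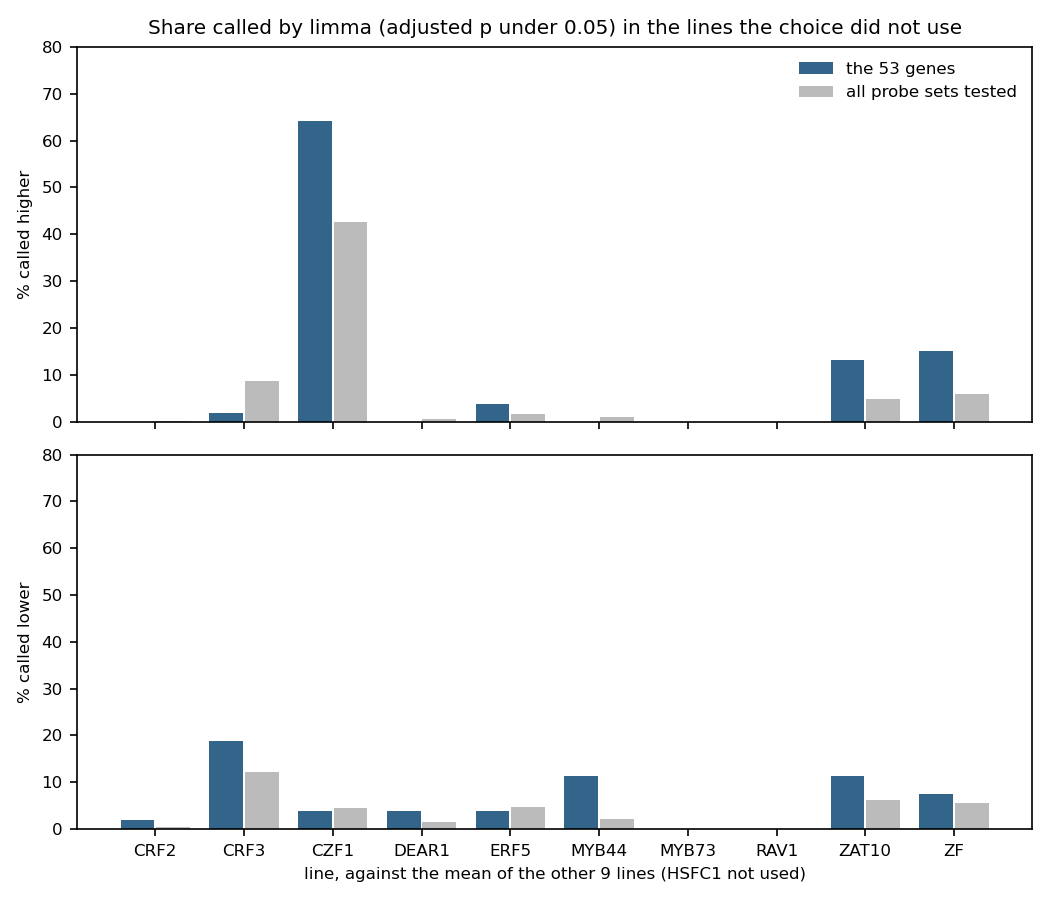
Percent of the 53 members (blue) and of all 15916 probe sets tested (grey) that limma called higher (top) or lower (bottom) in a line than the mean of the other 9 lines, at an adjusted p under 0.05. CZF1 has the tallest bars among the higher calls in members and in all probe sets, and MYB73 and RAV1 have none.

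In the CZF1 line, which overexpresses a CCCH zinc finger protein, 34 members were higher and 2 lower than the mean of the other 9 lines (limma, adjusted p under 0.05), against 42.7% and 4.49% of all probe sets. The median of the line difference was 0.86 in the members and 0.39 over all probe sets. APL3 had 7.60 and 7.77 in CZF1 and a mean of 5.71 in the other 9 lines, a difference of 1.98 ± 0.27 (SE, adjusted p = 2.91e-05). These CZF1 values lay between those of the WT warm arrays, so APL3 was not higher in CZF1 than in WT warm. The largest other differences were those of scpl35 (1.88 ± 0.25, adjusted p = 2.21e-05), AT1G21670 (1.83 ± 0.19, adjusted p = 1.55e-06) and SWEET1 (1.78 ± 0.29, adjusted p = 0.000161). The CZF1 arrays are among those with the higher medians. After quantile normalization 15 members were higher and 2 lower, with 10.5% and 11.3% of all probe sets called higher and lower. Against WT warm, whose arrays had medians in the same range, CZF1 was above 0 in 41 members with a median of 0.43. Over the 5978 it was above 0 in 51.1%, with a median of 0.01. Both CZF1 arrays stood above both WT warm arrays in 31 members (24.3% of the 5978). In 7 members the difference was at least 1, against 1.19%. In the deposited values 14 of the 36 calls in CZF1 were kept under every alternative, which included APL3, SWEET1, scpl35, BGLU25 and AT1G80130. A comparison with WT warm was not among these alternatives. Without CZF1 replicate 1 or 2 the count was 18 or 25.

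The ZF line, named for a zinc finger protein, had 8 members higher and 4 lower than the other lines, against 5.97% and 5.57% of all probe sets. GI had 8.08 and 8.07 in ZF, against a mean of 6.56 in the other 9 lines (1.52 ± 0.20, adjusted p = 0.000163). AT1G80130 had 7.92 and 8.18 in ZF, against 6.08 (1.97 ± 0.26, adjusted p = 0.000167). AT5G61820 had 9.46 and 9.45, against 8.27 (1.18 ± 0.27, adjusted p = 0.00774), APL3 6.65 and 7.05, against 5.80 (1.05 ± 0.27, adjusted p = 0.0169), and BETA-VPE 6.21 and 6.33, against 5.42 (0.85 ± 0.24, adjusted p = 0.025). GI and AT1G80130 kept their calls in every alternative, and without ZF replicate 1 or 2 the count was 4 or 2. Without the CZF1 arrays 11 members were higher and 1 lower in ZF, so the split by direction depended on the lines compared. After quantile normalization 10 were higher and 4 lower, against 6.41% and 5.6% of all probe sets. AT5G18130 was at the other end, with 4.30 and 4.30 in ZF and 5.47 in the other lines (-1.17 ± 0.23, adjusted p = 0.00343).

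In the ZAT10 line, 7 members were higher and 6 lower, against 4.75% and 6.18% of all probe sets. One of the 7, STZ, is the transgene itself. It had 12.95 and 12.92 in this line and a mean of 4.56 in the other 9 (8.38 ± 0.52, adjusted p = 4.55e-08), with 1 array of CRF3 at 8.45 as the next highest. GI had 7.89 and 7.86 in ZAT10, against 6.58 (1.29 ± 0.20, adjusted p = 0.000336), so its ZF and ZAT10 arrays stood above those of HSFC1 and below those of the cold. AT5G14550 had 3.70 and 3.84 in ZAT10, against 4.76 (-0.99 ± 0.17, adjusted p = 0.000853), but differed by -0.23 from the control WT. AT5G61660 was higher (1.19 ± 0.27, adjusted p = 0.00805, and 0.76 against the control WT), as was TIL (0.65 ± 0.18, adjusted p = 0.0246), at 9.73 and 10.10 in ZAT10 against a mean of 9.26. Without ZAT10 replicate 1 or 2 the count was 4 or 6, and STZ, GI and AT5G14550 were called in both.

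In ERF5, 2 members were higher and 2 lower (1.67% and 4.72% of all probe sets). GI was at 5.57 and 5.60 in ERF5, against a mean of 6.84 in the other 9 lines (-1.25 ± 0.20, adjusted p = 0.0022). That mean includes ZF and ZAT10, where GI was high, and against the control WT the difference was -0.52 and the call was lost. AT2G38465 had 6.16 and 6.39, against 5.14 (1.14 ± 0.25, adjusted p = 0.013), and AT1G80130 differed by -0.93 (adjusted p = 0.0387), or by -0.36 against the control WT. In MYB44, 6 members were lower and 0 higher, against 2.26% and 1.06%. They included BETA-VPE, at 4.69 and 4.33 against 5.62 (-1.11 ± 0.24, adjusted p = 0.014), bZIP44, whose arrays had 5.52 and 3.99 (-1.42 ± 0.38, adjusted p = 0.0474), and AT5G35735 (-0.94 ± 0.25, adjusted p = 0.042). Against the control WT the difference of AT5G35735 was -0.34, and without MYB44 replicate 2 that of bZIP44 was -0.65 from the other lines. The split by direction in MYB44 depended on the lines compared and on the scaling. Without the CZF1 arrays 2 members were higher and 2 lower, and bZIP44 and AT5G35735 were not called. After quantile normalization 1 was higher and 2 lower, against 1.58% and 1.91% of all probe sets. Without replicate 1 or 2 of the line, 1 or 0 members were called in ERF5, where GI had adjusted p of 0.0329 to 0.052, and 2 or 0 in MYB44.

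In CRF3, 1 member was higher and 10 lower, against 8.66% and 12.2% of all probe sets. The one higher was AT3G61930 (0.91 ± 0.29, adjusted p = 0.0349), and the lower ones included AT1G68570, whose arrays had 8.04 and 5.51 (-1.10 ± 0.34, adjusted p = 0.0318), AT5G61660 (-0.90 ± 0.27, adjusted p = 0.0296) and GI (-0.67 ± 0.20, adjusted p = 0.0275). Without CRF3 replicate 2 the differences of AT1G68570 and AT5G61660 turned to 0.161 and 0.059, and against the control WT that of GI was 0.01. The CRF3 arrays differed from each other by more than 1 in 21 members, with AT3G51660 at 4.02 and 7.91, and 0 of the 11 calls were kept without each of the 2 arrays in turn, the count being 29 without replicate 1 and 0 without replicate 2. DEAR1 had 2 members lower and 0 higher (1.42% and 0.471%). AT2G23120, the member with the highest control WT mean, had 6.86 and 8.84 in DEAR1, against a mean of 9.88 in the other lines (-2.04 ± 0.33, adjusted p = 0.00453), and AT5G19875 was lower by 0.85 (adjusted p = 0.0261). Without DEAR1 replicate 1 or 2 the count was 0 or 4, and without replicate 1 the differences of AT2G23120 and AT5G19875 were -1.04 and -0.42. In CRF2, AT1G56300 was the only member called, against 0.182% of all probe sets higher and 0.528% lower (-1.14 ± 0.26, adjusted p = 0.0458), and it was lost without either CRF2 array. Against the control WT its difference turned to 0.245. In MYB73 and RAV1, 0 members passed with limma, against 0.00628% of all probe sets in each line. At an unadjusted p under 0.05 there were 9 members in MYB73 (17% of them, against 9.85% of all probe sets) and 6 in RAV1 (11.3%, against 6.63%).

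Set against the control WT, with no test because that WT chose the members, the number of members at least 1 higher was 26 in CZF1 (13.4% of the 5978), 10 in ZF (2.94%), 7 in ZAT10 (1.57%), 6 in CRF3 (4.45%), 3 in ERF5 (0.485%), 3 in MYB44 (1.17%), 2 in DEAR1 (0.585%), 1 in CRF2 (0.234%) and RAV1 (0.284%) and 0 in MYB73 (0.201%). The control WT arrays also entered the choice, so members that happened to be low there were favoured in every line. The narrowest ranges over the 10 lines were those of AT4G37295 (0.14), AT5G17850 (0.27), AT1G01940 (0.67), SAG29 (0.69) and AT2G41190 (0.76). For 3 of these the narrow range was found at low signal, where a probe set can show little change. AT4G37295 lay between 4.08 and 4.41 over the 20 arrays, with 13 of them at 4.21, SAG29 lay between 2.80 and 4.01, and AT5G17850 was under 5 in 17 arrays. AT1G01940 (6.90 to 7.96) and AT2G41190 (5.84 to 6.73) had higher signals. In all 5, both HSFC1 arrays and both cold arrays stood above these 20, against 3.38% (HSFC1) and 23.8% (cold) of the 5978. For AT4G37295 and SAG29, with all 20 arrays under 5, the signal limit of the rule made this certain. For AT5G17850 it nearly did.

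**Figure D5:**
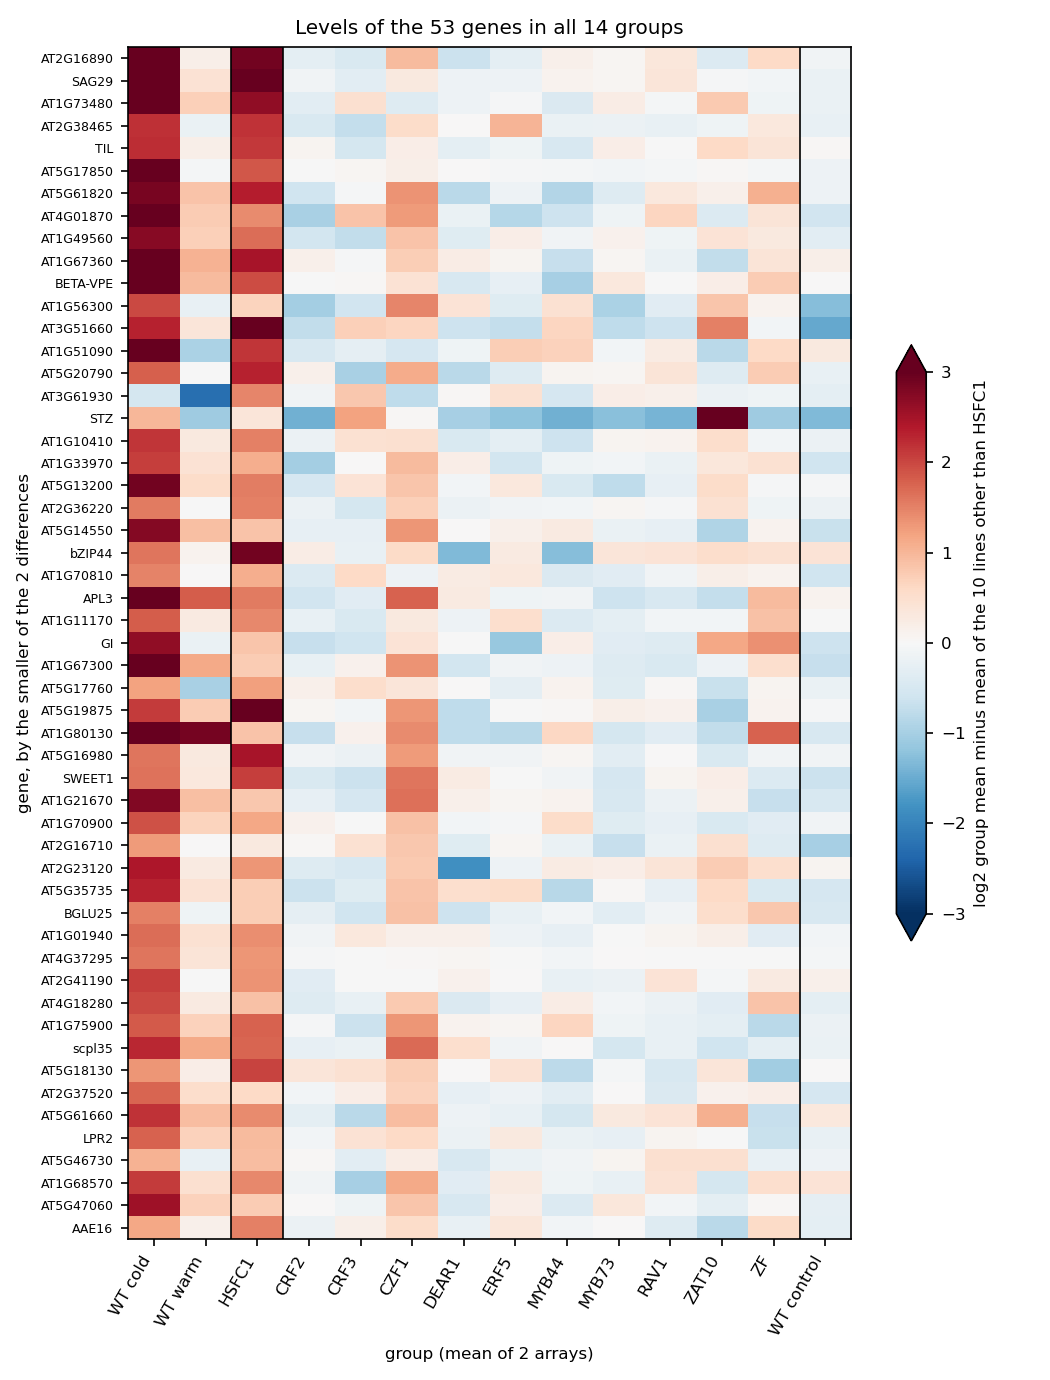
Mean log2 signal of each of the 53 members (rows) in the 14 groups (columns), as the difference from the mean of the 10 lines other than HSFC1, on a scale from -3 to 3. Most members are red in WT cold and in HSFC1, many are paler red in WT warm and CZF1, and most are near white in most other lines. AT3G61930 is an exception in WT cold, where it lies below the mean of the 10 lines.

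Lists of genes in related pathways gave few measured members. Of 14 circadian clock genes, 3 were named on the array. GI was the member, COR27 was 4.18 higher in the cold and 0.52 higher in HSFC1, and AT4G33980 was 2.48 higher in the cold and 0.24 higher in HSFC1. Of 8 CBF regulon genes other than those excluded by the rule, COR15B was measured, at 4.46 higher in the cold and 0.03 in HSFC1. Of 11 starch breakdown genes, PWD differed by 0.72 in the cold and 0.66 in HSFC1, and DPE1 by -0.07 and 0.85. Among the genes listed for heat responses, AT5G48570 was 3.04 higher in HSFC1 and -1.77 in the cold. Lists of abscisic acid response, raffinose synthesis, and dark and starvation response had 0 genes named on the array. Of genes whose annotated names mark them as transcription factors, 2 of 38 were members (bZIP44 and STZ), and of 41 for sugar and starch metabolism, 10 for lipid metabolism and 59 proteases, 1 each (BGLU25, AAE16 and scpl35). The word lists with 0 members were transporters and channels (14 genes), redox enzymes (89), ubiquitin and F-box proteins (29), calcium binding (12), late embryogenesis abundant proteins (7), kinases and phosphatases (7) and RNA binding and processing (7). All word lists go by words in the annotated names, and 41 of the 53 members are known only by locus. A list with 0 members therefore does not show that no member belongs to that class. SAG29, SWEET1 and AT1G68570, for example, are not on the list of transporters.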

How the data were processed

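The values are log2 signals deposited by the authors, in a table with a column for each array. The tools listed per the submitters' processing notes are GCRMA and limma, without versions, and how arrays were put on one scale is not given there. Probe-level data were not used here. Groups came from the labels; where titles say MYB4 and MYB7, the source names say MYB44 and MYB73 and were followed. Gene names came from the platform annotation, updated with RefSeq (13436 of 13513 single-gene probe sets matched a locus). Probe sets with log2 over 4 in at least 2 arrays were tested (15916). All 14 group means were fitted with limma 3.58.1 in R 4.3.3 (lmFit, eBayes), and each line other than HSFC1 was compared with the mean of the other 9 lines, adjusted by Benjamini-Hochberg at 0.05, with an F test among the 10 lines. In simulated data, 77% of changes of 1 and 99% of changes of 2 were recovered for ZAT10, with 12 false calls, and 29% and 87% for the F test, with 7. The simulation used independent noise of equal spread in all groups and changed few probe sets, in 1 line only. Recovery and false calls in the real arrays can therefore differ. The members and the gene lists were chosen with earlier results of these data known. The named genes are the 12 members with the largest smaller difference, those at the edges of the limits, up to 3 called per line, the 5 widest and 5 narrowest over lines, list members and the 3 highest and 3 lowest in the control WT; SWEET1, LPR2, AT5G14550, AT5G18130, AT1G51090 and AT5G20790 were named after their values were seen. Replicates are labelled biological, so p-values describe the spread between these arrays. Promoter sequences were not analysed here.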

Additional observations from a re-analysis of the deposited data

Results flagged for a closer look

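Probe sets that the annotation does not tie to a single gene took no part in the comparisons. Of 9233 such probe sets, 5328 passed the signal limit, and 62 of these (1.16%) passed both differences, against 0.987% of probe sets naming 1 gene. Their median differences were 1.55 in the cold and 1.62 in HSFC1.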

How the results depend on the processing

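Of 139 combinations of a count of members and an alternative, 100 stayed within 1.5 times. Shares over all probe sets are not given here, so these counts describe how the calls move with the settings and not a trait of the members. Without the filter on signal 0 members were called in CRF2, 4 in CRF3 and 2 in MYB44, and with quantile normalization 0 in CRF2, 17 in CZF1, 1 in DEAR1 and 3 in MYB44. Without the CRF3 arrays there were 7 in CRF2, 8 in DEAR1, 13 in MYB44, 2 in MYB73 and 1 in RAV1. Without the CZF1 arrays the F test passed in 23, with 0 called in CRF2, 3 in CRF3 and 1 in DEAR1. With the control WT in place of the other 9 lines there were 0 in CRF2, 3 in CRF3, 1 in DEAR1, 0 in ERF5 and 2 in MYB44. The rule gave 99 members with the control WT for the cold, of which 52 are among the 53, and 22 with a threshold of 1.5. With WT warm for HSFC1 it gave 50, of which 30 are among the 53. The replicate block gave 0 calls in CRF2 (1 without it), 40 in the F test, 10 in ZAT10 and 13 in ZF. The replicate numbers do not pair the samples, since over 91 pairs of groups the correlation of deviations ran from -0.352 to 0.175. Leaving out 1 array gave 0 in CRF2, 0 to 29 in CRF3, 18 to 25 in CZF1, 0 to 4 in DEAR1, 0 to 1 in ERF5, 0 to 2 in MYB44, 4 to 6 in ZAT10, 2 to 4 in ZF, 29 to 46 in the F test and 44 to 60 members of the rule. Of 85 calls of a member in a line, 18 were kept in all alternatives. Turned in sign were AT1G56300 in CRF2 (0.245) and GI in CRF3 (0.01) with the control WT, and AT1G75900 (0.035), AT5G61660 (0.059) and AT1G68570 (0.161) without CRF3 replicate 2, against -1.475, -1.851 and -2.369 without CRF3 replicate 1. The cause was not tested. With 2 arrays a group, changes of 1 were often missed by the F test in simulated data, and signals near the floor of 2.13 limit differences.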
